A study of Mus musculus with 6 samples.

Results

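The genes for 9 hematopoietic cytokine receptors were followed in leukemia cells of the AE9a mouse model: Kit, Flt3, Csf1r, Csf2ra, Csf2rb, Csf2rb2, Csf3r, Il3ra and Il6ra. They were chosen by gene symbol from a table of 54532 genes, and all 9 were found in it. AE9a is a short, leukemogenic splice form of the AML1-ETO fusion, which was brought by retrovirus with a GFP marker into c-Kit+ mouse stem and progenitor cells. GFP+ cells were first grown as a leukemia in lethally irradiated female C57BL/6 recipients, and cells of the third generation of transplanted mice were sequenced, so that all libraries share AE9a and the labelled strain, C57BL/6. Central bone marrow (CBM) cells were flushed from femurs and tibias, and endosteal bone marrow (EBM) cells were then released from the same kind of bones by collagenase I at 37 °C, with 3 libraries from each region. The cells were kept in IMDM with serum before and after sorting. Region and digestion coincide in every library and cannot be told apart, and the sources do not state whether libraries of a region came from separate mice, so p-values measure the spread between these libraries.

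Cytokine receptors carry the signals by which blood progenitors survive, divide and choose a lineage. Kit, Flt3 and Csf1r are receptor tyrosine kinases for stem cell factor, FLT3 ligand and CSF1, and signal when the ligand pairs them. The others have no kinase of their own and signal through JAK kinases and STAT factors: Csf3r pairs with itself to read G-CSF, Il6ra binds IL-6 and signals through the shared chain gp130 (Il6st), and Csf2ra and Il3ra are the ligand-binding alpha chains for GM-CSF and IL-3. These alpha chains need a beta chain to signal, and mice have a pair of them, the common chain Csf2rb and a near-copy, Csf2rb2, that serves IL-3 only. Flt3 marks multipotent, lymphoid and dendritic progenitors, Csf1r monocytes and macrophages, and Csf3r the neutrophil line, while Kit stays high on stem cells, early erythroid cells and mast cells.

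Because the beta chain genes are alike, their sequences bear on how far their counts can be told apart. Csf2rb (ENSMUSG00000071713, plus strand, chr15:78325752-78353847) and Csf2rb2 (ENSMUSG00000071714, minus strand, chr15:78282507-78305721) of GRCm38 point away from each other, with 20030 bases and no gene of the table between them. In GENCODE M21, the coding sequences of Csf2rb (15 exons) and Csf2rb2 (14 exons) differed at 126 of 2631 aligned bases, an identity of 95.2%. Reads were 150 bases long, and of the 2542 stretches of that length in the Csf2rb coding sequence 165, or 6.49%, occurred without change in that of Csf2rb2. Over whole transcripts the share was 3.47% of 4751 stretches for Csf2rb and 3.59% for Csf2rb2. These shares treat each read alone, although reads came in pairs. The 90 coding bases that differ most within a single exon of each gene are given here, 5′ to 3′ along the transcript, with the 16 differing bases in capitals. They lie in exon 5 of Csf2rb (chr15:78338897-78338986) and in exon 4 of Csf2rb2 (chr15:78294345-78294434).
Csf2rb: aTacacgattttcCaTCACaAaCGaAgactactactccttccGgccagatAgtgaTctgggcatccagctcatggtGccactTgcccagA
Csf2rb2: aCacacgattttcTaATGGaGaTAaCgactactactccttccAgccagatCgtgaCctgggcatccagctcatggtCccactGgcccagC
Reads over these bases can be assigned to a gene. The longest stretch the coding sequences share without change spans 242 bases, longer than a read, in exon 15 of Csf2rb (chr15:78348577-78348818) and in exon 14 of Csf2rb2 (chr15:78284630-78284871). Whether reads from this and like stretches were dropped or split is not given in the sources used here. Splitting would leave the level of each beta chain less certain than their sum, and dropping would lower each level and the sum.

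The libraries held between 16436526 and 19462964 counts on genes, and 3 counts corresponded to between 0.149 and 0.193 CPM, the count scaled to library size with TMM factors. Where a region has 3 values in a row, they belong to its replicates 1, 2 and 3 in that order. The floor of 3 counts covers counting error only, since PCR copies are not independent molecules. The label "leukemia cells" was set against marker genes of other cells. Of 7 stromal and osteoblast markers and 4 T cell markers, each was below 1 CPM in every library, with Sp7 at 0 throughout. Of the 6 mast cell and basophil markers, 1 was high in every library, Ms4a2, the beta chain of the IgE receptor, between 652 and 1051 CPM. The granule enzymes Cpa3 and Cma1 and the IgE receptor chain Fcer1a were between 2.70 and 5.20 CPM in CBM replicate 2 and EBM replicate 3 and between 13.1 and 224 CPM in the other libraries, while Mcpt8 and Tpsb2 had at most 23 and 4 counts. Among erythroid genes Slc4a1, the red cell anion exchanger, lay between 285 and 2236 CPM. Ptprc, the pan-leukocyte antigen CD45, was at most 3.58 CPM. The first principal component, with 53.0% of the variance, did not separate the regions and set CBM replicate 2 and EBM replicate 3 at one end and CBM replicate 1 and EBM replicate 1 at the other. The second, with 19.7% of the variance, held the CBM libraries between -31.5 and -3.58 and the EBM libraries between 14.8 and 22.2 and so kept the regions apart.

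AE9a cells of both regions carried transcripts of 4 of the 9 receptors at high or middle level, Csf2rb, Csf2rb2, Kit and Csf2ra, while Csf3r, Il3ra, Csf1r, Il6ra and Flt3 had at most 49 counts in any library. Levels of different genes were compared as CPM per kilobase of the deposited gene length (RPKM). In CBM, Csf2rb had 95.1 ± 49.8 RPKM (SD, n = 3) and Csf2rb2 94.9 ± 74.8 RPKM, followed by Kit with 24.7 ± 0.915 RPKM and Csf2ra with 19.7 ± 3.21 RPKM. In EBM the levels were 103.6 ± 68.3 RPKM for Csf2rb2, 96.9 ± 38.2 RPKM for Csf2rb, 24.7 ± 2.49 RPKM for Kit and 22.8 ± 8.21 RPKM for Csf2ra. The ranges of the beta chains overlapped each other in both regions and those of Kit and Csf2ra overlapped in EBM. In CBM Kit lay above Csf2ra in all libraries. How close these genes stand depends on the deposited lengths, 8911 bases for Kit and 1849 for Csf2ra. By CPM, Kit was at 196 or more and Csf2ra at 54.0 or less in every library. Among the 13352 genes that passed the filter on low counts, Csf2rb2 ranked 459, Csf2rb 484, Kit 2457 and Csf2ra 2857 by mean RPKM. The order of the beta chains depends on the deposited lengths, 7277 bases for Csf2rb and 4740 for Csf2rb2. Raw counts of Csf2rb were above those of Csf2rb2 in every library. The remaining receptors lay far below, between 0.263 RPKM for Csf3r and 0.0198 RPKM for Flt3 in CBM, and all neighbours among them overlapped in both regions. In bulk RNA, a low level can mean few cells with a receptor or little RNA in each cell, and these cannot be told apart.

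**Figure D1:**
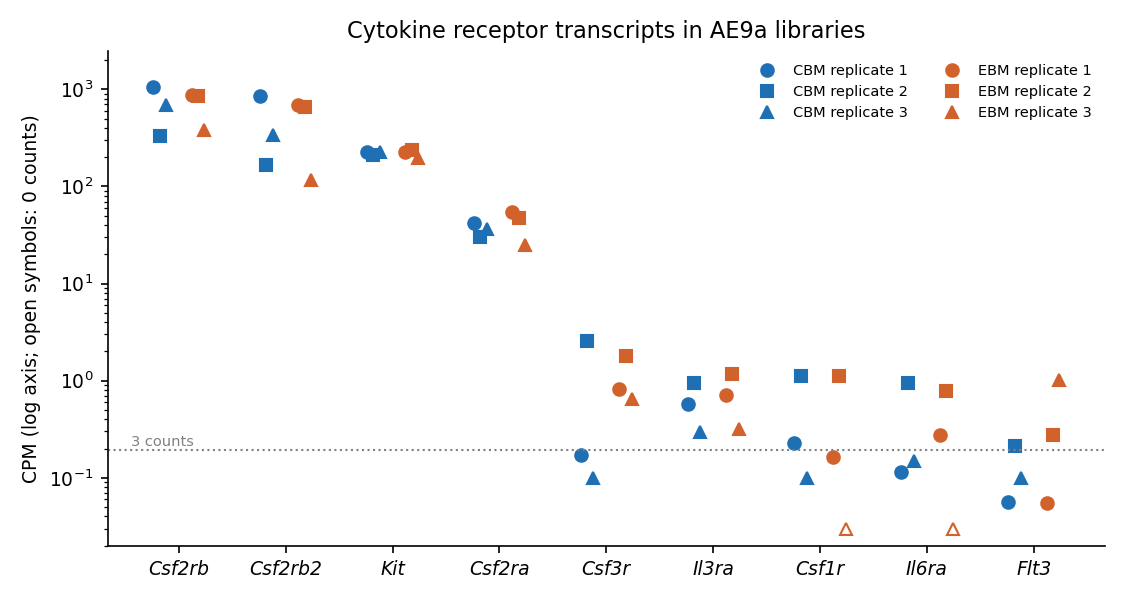
Each symbol is 1 library, with CPM on a log axis for the 9 receptor genes, CBM in blue and EBM in orange, and replicates as circles, squares and triangles. Open symbols mark 0 counts and the dotted line is the highest level that 3 counts give in a library; Csf2rb, Csf2rb2, Kit and Csf2ra stand at 25.0 CPM or more in all 6 libraries and the other genes at 2.58 CPM or less.

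Kit (ENSMUSG00000005672, chr5:75574916-75656722) was the steadiest of the receptors. The founding cells were selected on c-Kit protein, and the paper reports the leukemia as lineage-negative and c-Kit-positive. The presence of Kit RNA is therefore no separate finding. Its levels were 225, 210.3 and 224 CPM in CBM and 227, 239 and 196 CPM in EBM. The regions overlapped and the highest library was 1.22-fold above the lowest, against a median of 1.55-fold over all genes tested. The 95% interval of the fold difference of EBM over CBM ran from 0.846 to 1.19 (log2 fold change 0.0044, SE 0.10, edgeR quasi-likelihood adjusted p = 0.997). A difference of Kit within this interval could not be seen with these libraries.

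The beta chains varied among libraries of the same region far more than between regions. Csf2rb, the signalling chain for GM-CSF, IL-3 and IL-5, was at 1059, 334 and 683 CPM in CBM and at 876, 854 and 384 CPM in EBM. Csf2rb2 was at 847, 165 and 338 CPM in CBM and at 694, 662 and 118 CPM in EBM. CBM replicate 2 and EBM replicate 3 were the lowest libraries of their regions for both genes, and the regions overlapped. The highest Csf2rb library was 3.17-fold above the lowest and the highest Csf2rb2 library 7.21-fold. The regions differed by 1.02-fold for Csf2rb, with a 95% interval from 0.474 to 2.19, and by 1.09-fold for Csf2rb2, with an interval from 0.307 to 3.88 (edgeR quasi-likelihood adjusted p = 0.997 and 0.991). With both genes summed into 1 row before the fit, the difference on the log2 scale was 0.066 (adjusted p = 0.995 by edgeR). Changes of several fold in Csf2rb2 would therefore have stayed within its spread.

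Csf2ra (ENSMUSG00000059326, chr19:61224402-61228418), the GM-CSF binding chain, had 42.2, 30.4 and 36.8 CPM in CBM and 54.0, 47.3 and 25.0 CPM in EBM. EBM replicates 1 and 2 lay above every CBM library and EBM replicate 3 below every one. The fold difference was 1.16, with a 95% interval from 0.721 to 1.85 (log2 fold change 0.21, SE 0.29, edgeR adjusted p = 0.947). Without EBM replicate 3 the difference became 0.46 on the log2 scale (unadjusted p = 0.0324, adjusted p = 0.537 by edgeR). Without EBM replicate 1 it became -0.011 (unadjusted p = 0.971 by edgeR). With any other library left out it lay between 0.094 and 0.33.

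Il3ra (ENSMUSG00000068758, chr14:14346275-14356011), the IL-3 binding chain, was rare beside its beta chains. It had 10, 18 and 6 counts in CBM and 13, 21 and 5 in EBM. The regions overlapped, and the log2 difference was 0.30 (SE 0.60, edgeR adjusted p = 0.977). Il5ra, the alpha chain for IL-5 that also uses Csf2rb, had between 28 and 35 counts in every library.

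No difference between EBM and CBM was detected for any receptor tested. Of the 9 genes 6 had enough counts to be tested, and 0 of these 6 were called by the quasi-likelihood test of edgeR at an adjusted p below 0.05, against 0% of all 13352 genes. Of the 24771 genes that DESeq2 tested without this filter it called 173. At an unadjusted p under 0.05 there were also 0 of the 6, where 7.91% of all genes passed (4.01% higher and 3.90% lower in EBM), and DESeq2 called 0 of the same 6 and gave no adjusted p for Flt3, Csf1r and Il6ra. In none of the 9 did the CPM of the regions stay apart, as it did for 15.1% of all genes tested (7.47% higher and 7.65% lower in EBM). In the exact permutation test over the 20 relabellings of the libraries, two-sided p for the 6 genes lay between 0.5 and 1, in a design that cannot go below 0.1.

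**Figure D2:**
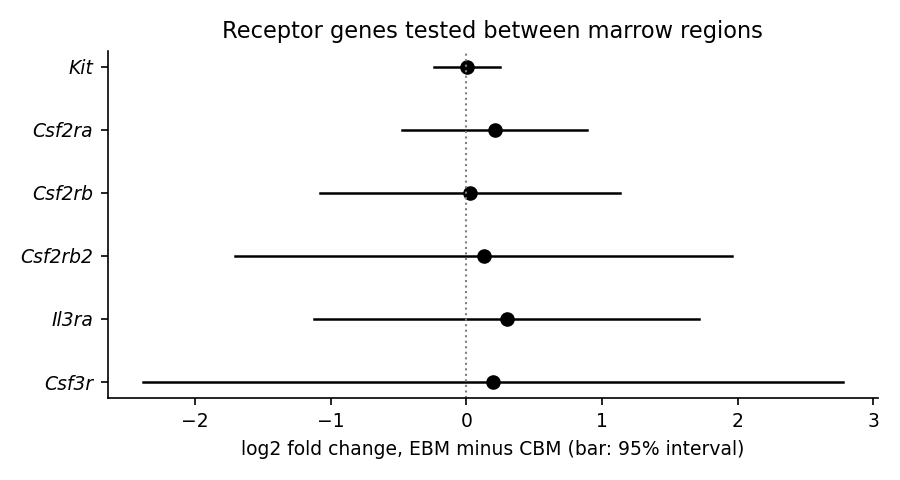
Points give the log2 fold change of EBM over CBM for the 6 receptor genes tested and bars its 95% interval from edgeR's quasi-likelihood fit, with 3 libraries per region. Every interval includes 0, and widths run from that of Kit (-0.24 to 0.25) to that of Csf3r (-2.39 to 2.78).

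The levels of the beta chains followed a split of the libraries that crossed the regions. Carboxypeptidase A3 (Cpa3), a mast cell granule enzyme, had 224, 3.74 and 44.3 CPM in CBM and 209.8, 179.8 and 5.20 CPM in EBM, and was lowest in the same libraries as Csf2rb and Csf2rb2. The erythropoietin receptor Epor ran the other way, with 94.6, 209.3 and 125 CPM in CBM and 81.8, 85.2 and 161 CPM in EBM. Its highest libraries were thus CBM replicate 2 and EBM replicate 3. Gab2, an adaptor that links the beta chains and Kit to PI3 kinase, had 371, 96.0 and 208 CPM in CBM and 342, 264 and 154 CPM in EBM, lowest in those libraries too. These 3 genes were chosen after their values were seen, as was the pattern. The 6 mast cell and basophil markers summed to 1426, 664 and 1088 CPM in CBM and to 1286, 1284 and 794 CPM in EBM. The 6 erythroid markers summed to 2381, 7445 and 3334 CPM in CBM and to 2855, 4111 and 5739 CPM in EBM. Not every marker followed its sum. The erythroid gene Hbb-bs had 1434 CPM in CBM replicate 2 but 807 CPM, its lowest, in EBM replicate 3. Mcpt8, with at most 23 counts, was highest in both of these libraries. The part of these cells or programs in the receptor levels was not tested.

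**Figure D3:**
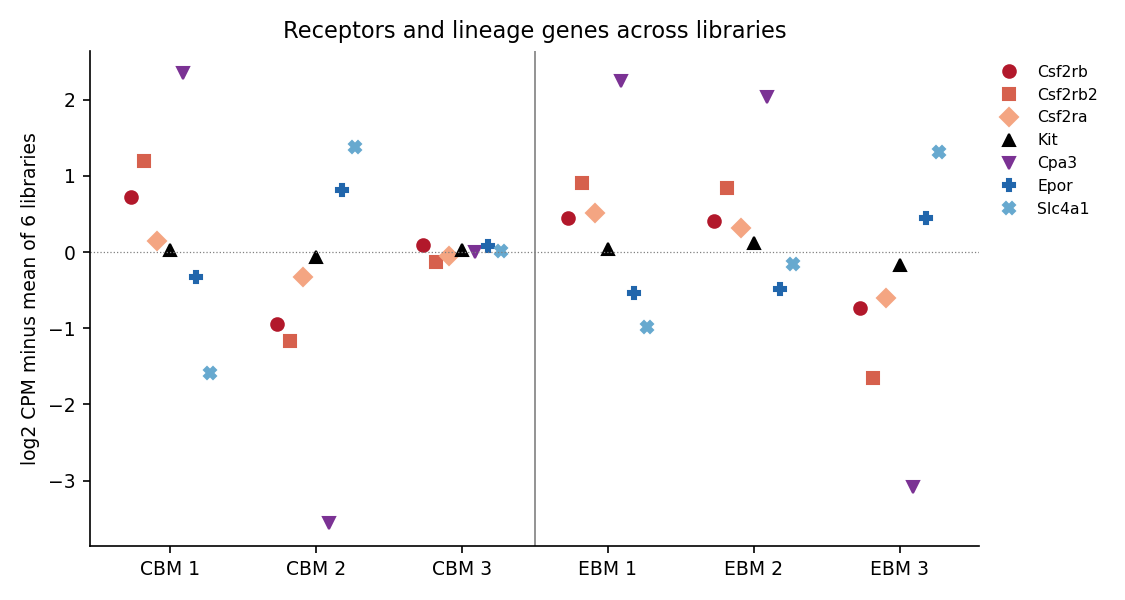
Symbols show log2 CPM of 7 genes in each library after subtracting the gene's mean over the 6 libraries, with CBM left and EBM right of the line. Csf2rb, Csf2rb2 and Cpa3 are lowest and Epor and Slc4a1 highest in CBM replicate 2 and EBM replicate 3, while Kit stays near 0 throughout. Slc4a1 is 1 of 6 erythroid markers, of which Hbb-bs (not drawn) was lowest in EBM replicate 3.

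Genes with the most similar course were sought among 8734 other genes of at least 10 CPM, by the root mean square difference of centred log2 CPM over the 6 libraries. For Csf2rb they were Adap1 (0.047), Fam198b (0.090) and Rab44 (0.091). Rab44, a large Rab GTPase of granulocytes and mast cells, had 1201, 378 and 842 CPM in CBM and 1160, 1039 and 424 CPM in EBM. Csf2rb2, with its wider swing, ranked 1251 by this measure. For the steady gene Kit they were Gstcd (0.021), Cog5 (0.027) and Gmpr2 (0.035).

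Ratios within a library do not depend on how libraries are scaled. Per kilobase, the summed beta chains exceeded Csf2ra by 14.2-, 4.91- and 8.31-fold in CBM and by 9.13-, 10.1- and 5.74-fold in EBM. They exceeded Il3ra by 1691-, 253- and 1646-fold in CBM and by 1103-, 652- and 716-fold in EBM. The beta chains thus outnumbered both alpha chains in every library. By the deposited lengths, Csf2rb2 stood above Csf2rb in CBM replicate 1 (ratio 1.23) and EBM replicates 1 and 2 (1.22 and 1.19). It stood below Csf2rb in CBM replicates 2 and 3 (0.756 and 0.760) and EBM replicate 3 (0.470). This order depends on the length used, 7277 bases for Csf2rb and 4740 for Csf2rb2, where their GENCODE transcripts span 4900 and 4740. Raw counts of Csf2rb were higher in every library, as with 18617 against 14886 in CBM replicate 1. The log2 ratios differed between EBM and CBM by 0.046 for Csf2ra, by 0.15 for Il3ra and by -0.019 for Csf2rb2 to Csf2rb. Exact permutation tests gave two-sided p = 1, 1 and 0.8, each 1 after Benjamini-Hochberg adjustment over the 4 ratios that could be tested. The other of these, Kit to Flt3, was at 131.9 or more in every library, but Flt3 had between 1 and 16 counts, too few for a comparison of the regions. Of the 7 ratios planned, 3 had a gene at 0 counts in EBM replicate 3, namely Csf1r to Csf3r, Kit to Csf1r and Il6ra to Il6st, and were not tested.

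**Figure D4:**
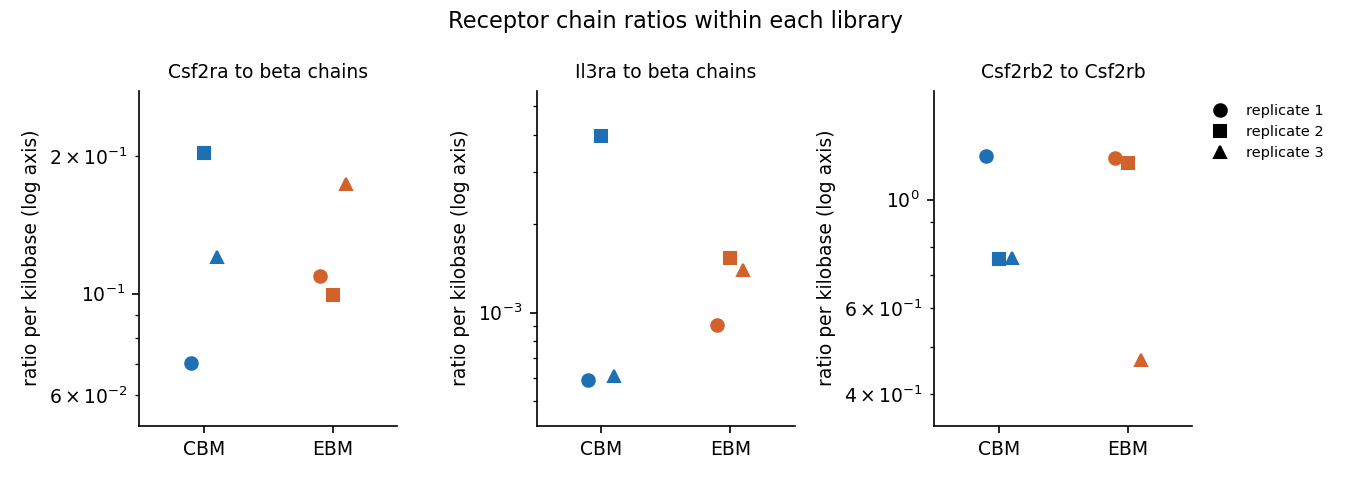
Ratios of counts per kilobase within each library are drawn on log axes, for Csf2ra and Il3ra to the summed beta chains and for Csf2rb2 to Csf2rb, with CBM in blue, EBM in orange and 1 symbol per library. The regions overlap in each panel, and CBM replicate 2 has the highest share of both alpha chains (0.204 for Csf2ra and 0.00396 for Il3ra).

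The receptors of the mature myeloid lines were close to absent. Csf3r (ENSMUSG00000028859, chr4:126024550-126044440) had 3, 49 and 2 counts in CBM and 15, 32 and 10 in EBM. Csf1r (ENSMUSG00000024621, chromosome 18) had 4, 21 and 2 counts in CBM and 3, 20 and 0 in EBM. It overlaps Hmgxb3 on the other strand, which had up to 1147 counts, and the sources do not say if reads were counted by strand. Il6ra (ENSMUSG00000027947, chr3:89864059-89913196) had 2, 18 and 3 counts in CBM and 5, 14 and 0 in EBM. All 3 genes were highest in CBM replicate 2 and EBM replicate 2.

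Late neutrophil markers were highest in those libraries as well. The 8 markers (Ltf, Camp, Ngp, S100a8, S100a9, Lcn2, Mmp8 and Retnlg) summed to 8.02, 243 and 3.72 CPM in CBM and to 52.9, 176 and 37.2 CPM in EBM. The 4 primary granule genes (Mpo, Elane, Prtn3 and Ctsg) summed to 3.19, 33.0 and 7.10 CPM in CBM and to 44.5, 67.1 and 13.0 CPM in EBM. Their sum was thus higher in EBM replicate 1 than in CBM replicate 2, unlike that of the late markers. Of the 9 monocyte and macrophage markers 7 stayed below 1 CPM in every library, Adgre1 and C1qa among them. The other 2 were Ccr2, a chemokine receptor of monocytes, and Cd14, a coreceptor for endotoxin. Ccr2 was between 8.61 and 20.5 CPM in the libraries, and the regions overlapped. Cd14 had 0.114, 0.632 and 0.248 CPM in CBM and 1.16, 3.73 and 0.643 CPM in EBM (log2 fold change 2.45, edgeR unadjusted p = 0.0224, adjusted p = 0.540). Every EBM library was above those of CBM, as in 7.47% of all genes tested. The gap was small, since EBM replicate 3 had 10 raw counts and CBM replicate 2 had 12, and it rests on the library scaling. The part of residual mature cells in these counts was not tested. Csf3r was the only one of the 3 genes with enough counts to be tested, and its log2 fold change was 0.19 (SE 1.09, edgeR adjusted p = 0.989). Without CBM replicate 2 it was 2.97 (unadjusted p = 0.00641, edgeR adjusted p = 0.433), so that this value rests on 1 library.

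**Figure D5:**
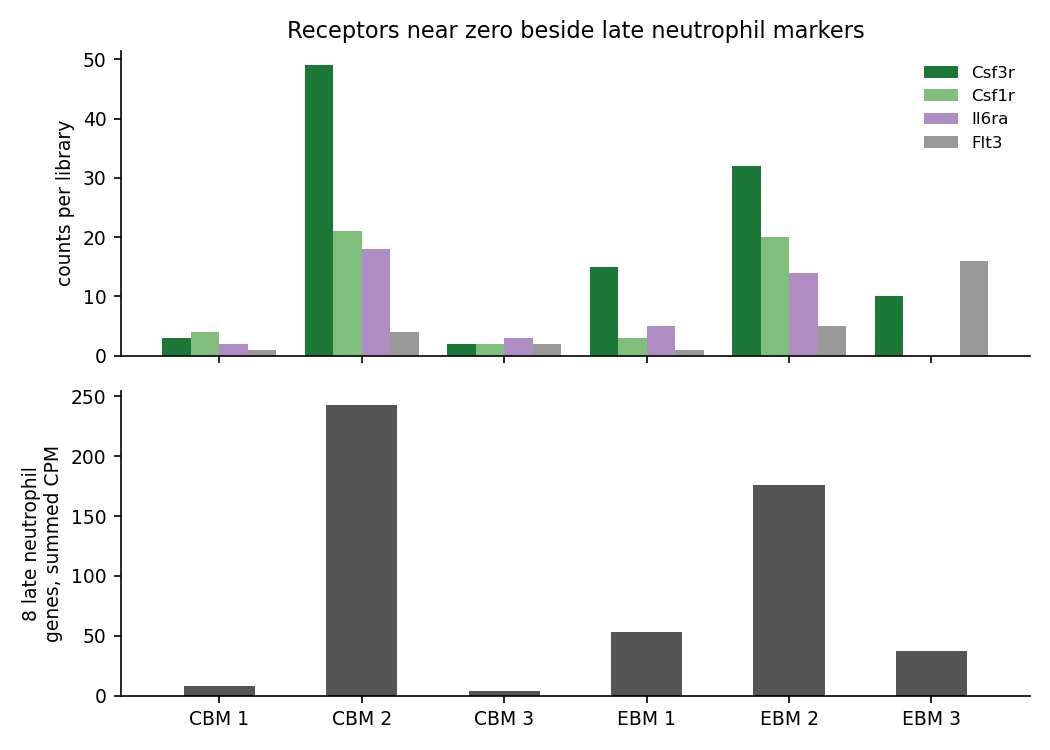
Upper bars give raw counts per library of Csf3r, Csf1r, Il6ra and Flt3, and lower bars the summed CPM of the 8 late neutrophil markers in the same libraries. Csf3r, Csf1r and Il6ra are tallest in CBM replicate 2 and EBM replicate 2, where the markers are highest too, and Flt3 is tallest in EBM replicate 3.

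Flt3 (ENSMUSG00000042817, chr5:147330741-147400489) had 1, 4 and 2 counts in CBM and 1, 5 and 16 in EBM, and was at or under 3 counts in 3 of the 6 libraries. It was too low to be tested. Its highest library was EBM replicate 3, which had no counts of Csf1r or Il6ra.

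Of the 9 ligand genes 2, Flt3l and Il6, had enough counts to be tested. Flt3l, the FLT3 ligand, had 50.3, 38.0 and 44.6 CPM in CBM and 37.9, 38.4 and 33.2 CPM in EBM (log2 fold change -0.28, SE 0.13, edgeR adjusted p = 0.678). Il6 had 6.20, 0.316 and 0.546 CPM in CBM and 11.4, 10.5 and 0.707 CPM in EBM (log2 fold change 1.69, SE 1.26, edgeR adjusted p = 0.830). Its highest libraries, CBM replicate 1 and EBM replicates 1 and 2, were also those of the beta chains, but the order differed. CBM replicate 1, the highest for the beta chains, had less Il6 than EBM replicates 1 and 2. CBM replicate 3 had less Il6 but more of both beta chains than EBM replicate 3. The IL-6 receptor chains were scarce, as Il6st had at most 16 counts. Kitl, the ligand of Kit, had at most 1 count in a library. Csf1, Il34, Csf2, Csf3 and Il5 had between 0 and 19 counts, and Il3 had 0 in all 6 libraries. A count of 0 allows up to the floor of 3 counts given above.

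Other receptors and the signalling genes behind them were read from lists of 73 genes, of which 52 were tested. The same test of edgeR called 0 of them, and DESeq2 called 1, Cish. At an unadjusted p under 0.05 there were 5, or 9.62%, beside 7.91% of all genes, with 3 higher and 2 lower in EBM. The regions did not overlap for 8, or 15.4%, beside 15.1% of all genes, with 5 higher and 3 lower. The median log2 fold change was 0.029 for the 52 genes and 0.0017 for all genes tested, so the lists lay close to the background.

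Of 18 other receptor chains 12 were tested, 6 higher and 6 lower in EBM. Of the 12, 1 had an unadjusted p under 0.05, beside 7.91% of all genes. Il1rl1, the IL-33 receptor of mast cells, had between 762 and 1301 CPM and was the most abundant by CPM. The genes with the smallest p were the IL-1 receptor Il1r1 (log2 fold change -0.41, SE 0.14), the interferon gamma receptor chain Ifngr1 (0.61, SE 0.27) and the common gamma chain Il2rg (0.36, SE 0.28), with edgeR adjusted p between 0.545 and 0.846. Among 9 related receptor tyrosine kinases only Kdr and Axl were tested, with log2 fold changes of -0.51 and -0.25 (edgeR adjusted p = 0.796 and 0.940). Pdgfra and Pdgfrb, close kin of Kit and Csf1r, had at most 2 counts.

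The machinery that the receptors share was well expressed in both regions. Jak2, the kinase bound by the beta chains and Epor, had a mean of 330.5 CPM in CBM and 321 CPM in EBM, and Stat5b had 351 and 352 CPM. Of 20 proximal signalling genes 19 were tested, 13 higher and 6 lower in EBM. Among the 19, 1 had an unadjusted p under 0.05, beside 7.91% of all genes. Jak1, a kinase of many cytokine receptors, and Vav1, an exchange factor for small GTPases, had log2 fold changes of 0.16 and 0.14 (edgeR adjusted p = 0.696 and 0.790).

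Among 9 inhibitors and genes of receptor turnover, 6 were higher and 3 lower in EBM. An unadjusted p under 0.05 was found for 1 of the 9, beside 7.91% of all genes. Adam17, a protease that sheds the IL-6 and CSF1 receptors from the cell surface, had 59.5, 73.2 and 63.2 CPM in CBM and 48.2, 51.7 and 53.1 CPM in EBM. All EBM libraries lay below all CBM libraries, as in 7.65% of all genes (log2 fold change -0.36, SE 0.11, edgeR adjusted p = 0.479). Adam10 (-0.20), a related protease, and Inpp5d (0.12), the phosphatase SHIP1, followed by p (edgeR adjusted p = 0.854 and 0.859).

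Of 8 STAT5 and feedback targets, 5 were higher and 3 lower in EBM. An unadjusted p under 0.05 was found for 2 of the 8, beside 7.91% of all genes. Cish, which STAT5 induces and which damps the beta chain receptors, had 96.1, 100.2 and 97.0 CPM in CBM and 147.6, 157 and 156 CPM in EBM (log2 fold change 0.65, SE 0.080, edgeR adjusted p = 0.115, DESeq2 adjusted p = 6.09e-07). The survival kinase Pim2 had 5.06, 5.53 and 5.61 CPM in CBM and 7.29, 9.85 and 8.03 CPM in EBM (log2 fold change 0.64, SE 0.18, edgeR adjusted p = 0.423). In both genes all EBM libraries lay above all CBM libraries, as in 7.47% of all genes. Socs3 was at most 2.39 CPM (log2 fold change 1.58, SE 0.85, edgeR adjusted p = 0.717).

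Of the 9 receptors 7 had an upstream window in the RefSeq promoter set of GRCm38.p6. It holds the 250 bases before each RefSeq start site, and a pair of such sites for Kit. Windows of Kit, the steadiest receptor gene, for the first of its sites, and of Csf2rb2, the gene with the widest swing among the abundant ones, are given 5′ to 3′ with motif matches in capitals. For Kit, 71 bases of the window lie within the gene as deposited and are left out, so that 179 bases are shown. The windows of Csf3r and Il3ra reach into their genes by 109 and 220 bases. The motifs were TGTGGT or TGCGGT for RUNX factors, whose DNA-binding domain AE9a keeps, GATAA for GATA factors and GAGGAA for PU.1, on either strand.
Kit, chr5:75574737-75574915, plus strand: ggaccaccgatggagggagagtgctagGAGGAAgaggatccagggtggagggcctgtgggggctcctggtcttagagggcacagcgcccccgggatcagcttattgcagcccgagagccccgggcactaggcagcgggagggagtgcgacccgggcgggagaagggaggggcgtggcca
Csf2rb2, chr15:78305722-78305971, minus strand: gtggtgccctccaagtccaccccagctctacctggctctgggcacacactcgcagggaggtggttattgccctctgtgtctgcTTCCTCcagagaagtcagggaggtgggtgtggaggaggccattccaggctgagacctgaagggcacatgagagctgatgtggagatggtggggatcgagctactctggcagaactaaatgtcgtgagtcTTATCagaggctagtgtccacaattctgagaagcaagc
Kit had 1 match, to the PU.1 letters, and Csf2rb2 had 1 match to the PU.1 and 1 to the GATA letters. Over the 7 genes, the PU.1 letters were in 5 windows, the GATA letters in 2 and the RUNX letters in 1, that of Flt3. Among all 32851 windows of this length in the set the shares were 23.3%, 22.6% and 18.6%. A match describes the letters in this window and is not a measured binding site.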

How the data were processed

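RNA-seq libraries of CBM and EBM AE9a cells (3 each) were made by the authors from rRNA-depleted RNA with a directional kit and read as paired ends. The submitters' processing notes name HISAT2 2.0.5 and mm10, and the counting tool and its strand setting are not given in the sources used here. The authors deposited a table of 54532 genes with raw, unnormalized counts and a gene length, used as given. Library totals were between 16436526 and 19462964 counts.

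Genes were kept with filterByExpr, normalized by TMM and tested with edgeR 4.0.16 (quasi-likelihood F-test, no block, Benjamini-Hochberg over 13352 genes, threshold 0.05). The standard error is the absolute log2 fold change divided by the square root of F. RPKM and ratios were computed from the counts and the deposited length, and single values were tested by exact permutation of log2 CPM (prior count 2). Alternatives were DESeq2 1.42.0, limma-voom (limma 3.58.1), a surrogate variable (sva 3.50.0), other size factors and filters, the replicate number as a block, summed paralogs and each library left out. The methods were tested on simulated counts without the split between libraries seen here, so their behaviour under such a split was not tested. Within each region, chi-square per degree of freedom between libraries was 13.1 or more, so none was a copy.

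The receptors and lists were chosen with earlier results of these data known. Named genes were all receptors and ligands and, in each other signalling list, the 3 tested genes with the smallest p (1 of these is not reported here), while the genes closest in course were given for Kit and Csf2rb, since Flt3, Csf1r and Il6ra did not pass the filter. Epor, Gab2, Il1rl1, Il5ra, Il6st, Jak2, Stat5b, Pdgfra and Pdgfrb were named after their values were seen. Coding sequences were aligned with Biopython 1.88 from GENCODE M21.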

Additional observations from a re-analysis of the deposited data

How the results depend on the processing

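In every alternative 0 of the receptors passed an adjusted p of 0.05. Over all genes the count of 0 (1056 at an unadjusted p under 0.05) became 173 with DESeq2, 276 with 1 surrogate variable and 40 without a filter on low counts, and over the signalling lists the count of 0 became 1 with DESeq2 (Cish) and 2 with the surrogate variable (Cish and Il6). The causes of these changes and of those that follow were not tested. The small differences of Kit, Csf2rb and Csf2rb2 changed sign: Kit gave -7.34e-05 with limma-voom, -0.011 with the surrogate variable, -0.029 with upper quartile and -0.065 with library totals, Csf2rb gave -0.016, -0.010 and -0.041 in the last 3, and Csf2rb2 -0.087 with the surrogate variable. Without a change of sign, Csf3r moved from 0.19 to 1.36 with limma-voom and 0.84 with the surrogate variable, Csf2ra from 0.21 to 0.10 with the surrogate variable, Csf2rb from 0.026 to 0.085 with limma-voom, and Csf2rb2 from 0.13 to 0.068 with limma-voom and 0.064 with library totals. With each library left out in turn, log2 fold changes ran from -0.060 to 0.073 for Kit, -0.011 to 0.46 for Csf2ra, -0.30 to 0.47 for Csf2rb, -0.27 to 0.96 for Csf2rb2, -0.36 to 2.97 for Csf3r and -0.20 to 0.78 for Il3ra. The differences in log2 ratio ran from -0.34 to 0.43 for Csf2ra, -0.31 to 1.06 for Il3ra -0.25 to 0.43 for Csf2rb2 to Csf2rb and, for Kit to Flt3 on 1 to 16 counts of Flt3, from -2.36 without EBM replicate 1 to -0.14 without EBM replicate 3, around -1.24 with all libraries.

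Deviations from the region means correlated across genes with r of 0.68, -0.20 and 0.20 between libraries numbered 1, 2 and 3, so the numbers were not taken to pair them. With the replicate number as a block 0 genes passed in each set, the log2 fold changes were 4.95e-05 for Kit, 0.15 for Csf2ra, 0.066 for Csf2rb, 0.023 for Csf2rb2, 0.88 for Csf3r and 0.27 for Il3ra, and the ratio differences were -1.24 for Kit to Flt3, 0.046 for Csf2ra, 0.15 for Il3ra and -0.019 for Csf2rb2 to Csf2rb. Depth limits what can be said of Flt3, Csf1r and Il6ra, each at or under 3 counts in 3 libraries.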
